A study of Mus musculus with 4 samples.

Results

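Mpo, C1qa and Ly86 are 3 genes of myeloid cells, and each was measured by 1 probe set in neural crest cells (NCCs) sorted from the cardiac outflow tract (OFT) at E10.5. They were chosen by name from a table of 766 probe sets that the authors had already selected by the difference between ILK mutant and control arrays, of which 603 carry 1 gene name, for 541 genes in all. All 3 members were therefore picked on the same contrast that is described here, and their genotype differences are given as a description, without a test. Per the file headers, that table was cut at a Bonferroni threshold on a p-value, and since these p-values were not used, no member can be placed just inside or outside a limit. The value table holds 45101 rows, of which 45037 probe sets remained once 64 Affymetrix control probe sets were set aside.

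The control group was Wnt1-Cre;ILK f/+ littermates, which are heterozygous for the floxed allele, although the labels call them wildtype. The mutant group (NKO) was Wnt1-Cre;ILK f/f, labelled ILK deletion. Both groups carried the Wnt1-Cre transgene, which the paper used to delete ILK in the neural crest, and a lacZ reporter of that lineage. A cell in which the transgene was never active is not expected to lose ILK in either group. OFTs of 1 genotype were pooled and digested, and cells stained for β-galactosidase activity with the fluorescent substrate FDG were collected by FACS. Several collections were pooled at RNA extraction, and each of the 2 biological replicates per genotype went onto 1 array. Which embryos or sorts make up a replicate was not stated, so the spread between replicates may be partly technical.

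Myeloid cells are blood cells and not derivatives of the neural crest. In the mouse embryo the first macrophages come from the yolk sac and seed the tissues around midgestation, and myeloid progenitors appear in the blood-forming tissues at a similar time. Mpo encodes myeloperoxidase, a heme enzyme that makes hypochlorous acid, is packed into the azurophil granules of neutrophils and is already transcribed in granulocyte and monocyte progenitors. C1qa encodes the A chain of C1q, the recognition part of the classical complement pathway, which is made largely by tissue macrophages together with the B and C chains. Ly86 encodes MD-1, a small secreted protein that binds CD180, a relative of the Toll-like receptors on B cells, macrophages and dendritic cells.

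The labelled cell type could be checked only in part. Among the neural crest genes named in the authors' table, the transcription factor gene Pax3 read 116.1 and 110.0 on the control arrays against 167.9 and 149.9 on the NKO arrays. Msx2, another transcription factor gene of these cells, read 584.6 and 572.1 on the control arrays against 707.2 and 699.2 on the NKO arrays. Sox10 and Foxd3, which define early neural crest cells, were not analysed here. Ilk itself read 809.5 and 800.7 on the control arrays against 467.7 and 386.7 on the NKO arrays, so that both arrays labelled ILK deletion were lower for the targeted gene (log2 difference -0.90, standard error 0.11).

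The stretches of 250 bases before the start of Mpo and of Ly86 are shown because the signals of both genes were higher in the same arrays, and myeloid genes are often bound by PU.1 and other ETS factors near their starts. They were taken from RefSeq (build GRCm38.p6), where 2 of the 3 members were matched. Mpo lies on the plus strand at chr11:87793534-87793783 and Ly86 on the plus strand at chr13:37345095-37345344. Capitals mark GGAA, the core that ETS factors bind, or its complement TTCC.
Mpo: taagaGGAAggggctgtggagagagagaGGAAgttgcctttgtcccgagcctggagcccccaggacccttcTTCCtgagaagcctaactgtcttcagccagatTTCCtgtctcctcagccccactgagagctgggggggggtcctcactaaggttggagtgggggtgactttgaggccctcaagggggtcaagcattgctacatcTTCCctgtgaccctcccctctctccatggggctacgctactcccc
Ly86: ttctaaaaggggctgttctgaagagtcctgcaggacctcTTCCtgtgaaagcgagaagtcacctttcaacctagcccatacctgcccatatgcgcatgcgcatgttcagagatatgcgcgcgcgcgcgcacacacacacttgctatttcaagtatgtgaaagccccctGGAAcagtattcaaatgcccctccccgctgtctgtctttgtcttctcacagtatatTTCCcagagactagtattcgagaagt

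The core GGAA occurred 5 times in the Mpo stretch and 3 times in that of Ly86, searched on both strands, but 93.4% of all 32851 promoter stretches of this length hold it. The longer form GAGGAA, which contains that core and is typical of PU.1, occurred 2 times before Mpo and 0 times before Ly86, against 23.3% of all promoters with at least 1 match. A Myb type site, TAACNG, occurred 1 time before Mpo and 0 times before Ly86 (19.8% of all promoters). The C/EBP type site TTGCNNAA (9.56% of all promoters) and the RUNX type site TGTGGT (14.0%) had 0 matches in either stretch. G and C made up 59.2% of the Mpo stretch, beside a median of 52.4% over all promoters, and Ly86 lay just under that median. These matches are letters in a window and do not show binding.

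Mpo had the highest difference of the 3 genes. Its intensity was 66.2 and 57.2 in the control arrays and 138.3 and 123.0 in the NKO arrays. Both NKO values lay above both control values, and the lower NKO array was still well clear of the higher control. The group means were 61.7 ± 6.35 (SD, n = 2) in the controls and 130.7 ± 10.8 (SD, n = 2) in the NKO mutants, a ratio of 2.12. On the log2(intensity + 16) scale, where the offset of 16 narrows the differences of dim genes, Mpo was higher by 0.92 (standard error 0.096), or 1.89-fold. Since RNA was taken from a sorted bulk of cells, a difference in the number of myeloid cells and a difference in Mpo RNA per cell cannot be told apart, here or for the other genes.

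The replicates of Mpo were the least alike of the 3 genes. The 2 control arrays differed by 0.17 and the 2 NKO arrays by 0.15 on the log2 scale, beside a median over all probe sets of 0.078 between the control arrays and 0.10 between the NKO arrays. The 4 differences between an NKO and a control array ranged from 0.76 to 1.08, so that each of them was several times the difference between replicates. Mpo was 9th among the 541 singly named genes by its log2 difference and 12th among all 45037 probe sets.

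Ly86 came next. Its intensity was 82.1 and 84.6 in the control arrays and 121.6 and 134.5 in the NKO arrays. The controls were close together, while the second NKO array was the higher one, the reverse of the order seen for Mpo. The means were 83.3 ± 1.76 (SD, n = 2) and 128.0 ± 9.13 (SD, n = 2), a ratio of 1.54. On the log2(intensity + 16) scale, Ly86 was higher in the NKO mutants by 0.53 (standard error 0.073), or 1.45-fold. Its 4 differences between an NKO and a control array ranged from 0.45 to 0.62, against 0.036 between the controls and 0.13 between the NKO arrays.

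Ly86 lay on either side of a 1.5-fold cutoff, the size of change that the methods set for differential expression, depending on the scale. The paper names Ly86, beside Plek and Fermt3, among increased genes tied to migration, the cytoskeleton and extracellular matrix. The cutoff corresponds to 0.58 on the log2 scale. Ly86 was above it as a ratio of mean intensities (0.62), with an offset of 1 (0.61) and without the first NKO array (0.60), and below it in the other 8 of 11 alternative settings and in the main one. Mpo was above the cutoff in all 11 and C1qa in 0.

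C1qa had the smallest and most even difference. Its intensity was 99.5 and 96.6 in the control arrays and 134.5 and 135.8 in the NKO arrays. The arrays of a genotype were almost level and the genotypes did not overlap. The means were 98.0 ± 2.04 (SD, n = 2) and 135.1 ± 0.964 (SD, n = 2), a ratio of 1.38. The log2 difference was 0.41 (standard error 0.057), or 1.33-fold, with a range of 0.38 to 0.43 over the 4 differences between an NKO and a control array. The replicates differed by 0.036 in the controls and 0.013 in the NKO mutants, less than the median probe set in either group. C1qa was 82nd among the singly named genes and 572nd among all probe sets. The genes of the other chains of C1q, C1qb and C1qc, were not analysed here.

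**Figure D1:**
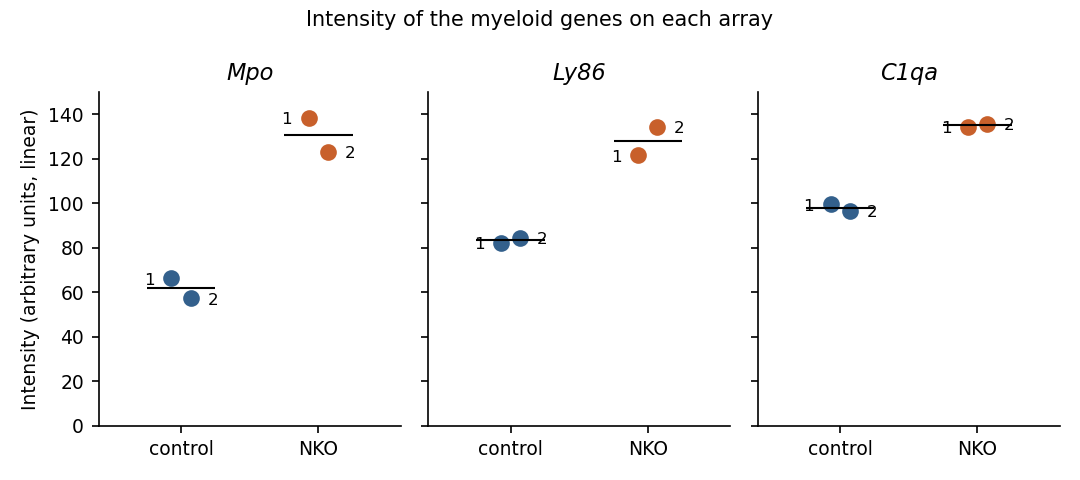
Linear intensity (arbitrary units) of Mpo, Ly86 and C1qa on each array, with points numbered by replicate and horizontal bars at the mean of the 2 arrays of a genotype. In each gene both NKO arrays lie above both control arrays, with means of 130.7 against 61.7 for Mpo, 128.0 against 83.3 for Ly86 and 135.1 against 98.0 for C1qa.

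Set side by side, the 3 differences did not overlap. The lowest difference of Mpo between an NKO and a control array (0.76) exceeded the highest of Ly86 (0.62), and the lowest of Ly86 (0.45) exceeded the highest of C1qa (0.43). The order Mpo, Ly86 and C1qa was the same in 11 of 11 alternative settings, but most of these could not have changed it. The replicate block and both kinds of centring shift all genes alike or not at all. Leaving out 1 array averages some of the differences above, which did not overlap between genes. The gap between Ly86 and C1qa was the narrow one, and whether the differences of these genes differ from each other was not tested. Levels of different probe sets cannot be compared, and each member had a mean intensity above 54.3% (Mpo), 56.0% (Ly86) or 57.7% (C1qa) of all probe sets, where an offset still matters.

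Both NKO arrays lay above both controls in 3 of 3 members, an order also found in 24.2% of all 45037 probe sets and in 314 of the 541 singly named genes (58.0%). Of the 3, 1 (Mpo) was at least 1.5-fold higher on the log2(intensity + 16) scale, against 0.286% of all probe sets (129) and 40 of the singly named genes (7.39%). The count of 129 was 255 without the first control array, 243 without the second, 226 without the first NKO array and 387 without the second. Since the members were taken from the selected genes, nothing is read from these counts. Over all probe sets, limma gave 0 calls (0%) at an adjusted p under 0.05, although 2331 were higher and 1641 were lower before adjustment at the same threshold. Limma's adjusted threshold was passed by 313 higher and 207 lower ones once its moderation was made robust and followed the intensity.

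**Figure D2:**
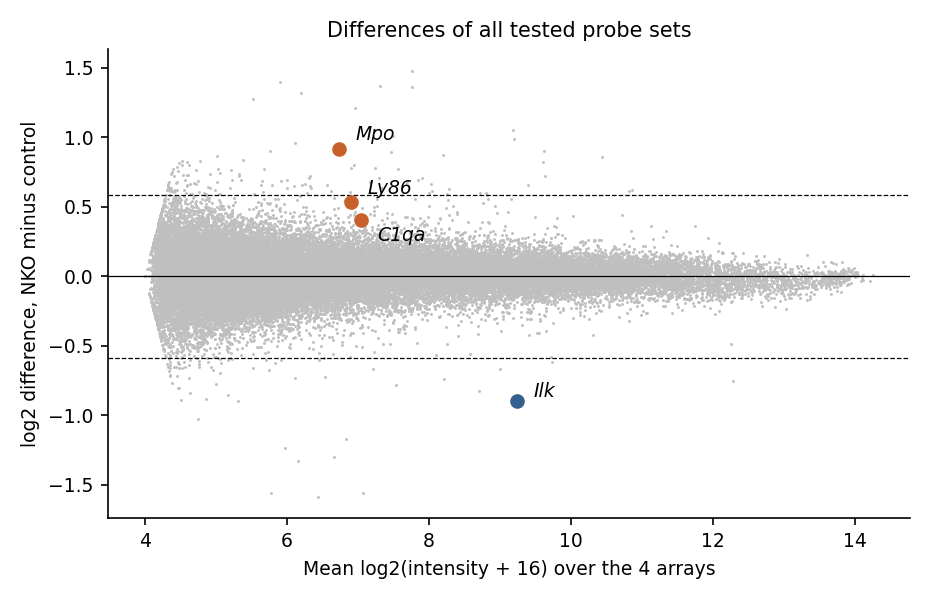
Each grey point is 1 of 45037 probe sets, with its mean log2(intensity + 16) over the 4 arrays on the horizontal axis and its log2 difference (NKO minus control) on the vertical axis. Dashed lines mark 1.5-fold. Mpo (0.92) lies above the upper line, Ly86 (0.53) and C1qa (0.41) lie below it, and Ilk (-0.90) lies below the lower line.

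Signals added at hybridization moved in the same direction. Used here were 16 probe sets for bacterial and phage RNAs that are spiked into each hybridization, which need not be all of them. All 16 were higher in the NKO arrays, by a median of 0.23 (range 0.11 to 0.31), whereas the median over all probe sets was 0.013. With each array centred on these controls, a setting chosen after the data were seen, the differences became 0.63 for Mpo, 0.25 for Ly86 and 0.12 for C1qa, each with a standard error of 0.16, so that C1qa no longer exceeded its error. In that setting the median of all probe sets was -0.27, and the members lay 0.90, 0.52 and 0.39 above it, distances that centring cannot change. The part of the spiked controls in these differences was not tested.

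**Figure D3:**
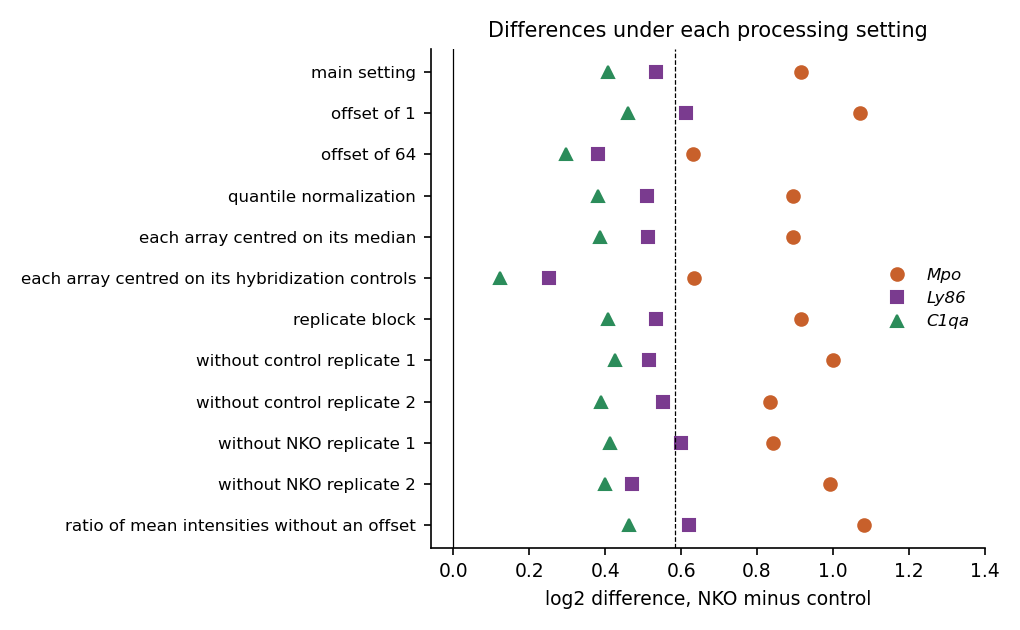
The log2 difference (NKO minus control, horizontal axis) of Mpo, Ly86 and C1qa under the main setting and 11 alternatives (rows), with a dashed line at 1.5-fold and a solid line at 0. All points lie above 0 in the order C1qa, Ly86, Mpo, and the lowest, 0.12 for C1qa, belongs to the scaling on the hybridization controls.

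The genes most like each member were sought among the other 538 singly named genes, by the Euclidean distance between their 4 log2 values after the control mean was subtracted. For Mpo these were Lin28a (0.083, named Lin28 in the file), an RNA-binding protein gene of early embryonic cells, the platelet chemokine gene Pf4 (0.14) and the dopamine transporter gene Slc6a3 (0.16). Lin28a read 214.9 and 187.6 on the control arrays against 391.3 and 371.1 on the NKO arrays, with the higher array of each genotype the same as for Mpo. For Ly86 they were Lsm11 (0.067), of the histone RNA processing machinery, Clec1b (0.073), a receptor of platelets and some myeloid cells, and Wfikkn1 (0.096), whose product resembles protease inhibitors and is secreted. For C1qa they were the reticulon gene Rtn1 (0.035), the G-protein regulator gene Rgs4 (0.039) and the matricellular gene Ccn2 (0.041, named Ctgf in the file). The members were farther from each other, at 0.74 for Mpo and C1qa, 0.59 for Mpo and Ly86 and 0.21 for Ly86 and C1qa. With 2 levels set by genotype, such a distance mostly reflects the size of the difference.

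Other myeloid genes were taken from 6 lists with 183 different genes, and 15 besides the members were named in the authors' table. All 15 were higher in the NKO mutants and had no overlap between genotypes, with a median log2 difference of 0.48 and a range from 0.25 to 0.86, and 6 of them were at least 1.5-fold higher. The same order of arrays was found in 24.2% of all probe sets and 58.0% of the singly named genes, and the same size of difference in 0.286% and 7.39%. Of the 541 singly named genes, 320 were higher and 221 lower, and the higher ones had a median of 0.30. The remaining genes of the lists have no probe set named alone there, so the 15 are those that the authors had selected and do not stand for the lists.

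Granule and oxidase genes held the most of them, with 6 of 29 named including Mpo. S100a8 and S100a9 encode the calprotectin subunits, the most abundant cytosolic proteins of neutrophils. S100a8 read 142.7 and 148.3 on the control arrays against 237.7 and 214.6 on the NKO arrays, a log2 difference of 0.58 (standard error 0.076). S100a9 read 61.3 and 79.5 on the control arrays against 104.3 and 104.1 on the NKO arrays, a log2 difference of 0.48 (standard error 0.12). The pair thus differed between genotypes by similar amounts, although the controls of S100a9 were spread by 0.30. Srgn, the core protein of the proteoglycan that holds granule contents, was higher by 0.70 (standard error 0.072), from 169.8 and 159.1 to 286.2 and 266.4. Ctsc, the protease that activates granule serine proteases, was higher by 0.69 (standard error 0.10) on a dim probe set, from 27.0 and 20.6 to 49.8 and 45.9. Ncf4, a cytosolic subunit of the phagocyte NADPH oxidase, was higher by 0.30 (standard error 0.070), from 152.9 and 140.4 to 187.1 and 180.5. Elane, Prtn3 and Ctsg, the serine proteases stored with myeloperoxidase, were not analysed here.

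In the other lists the named genes were fewer. Ly86 was the only named gene of 24 around the Toll-like receptors, and C1qa was the only one of 31 of the complement system, so the receptor partner of MD-1, Cd180, was not analysed. Of 44 macrophage genes 3 were named. Ctss, a lysosomal protease of antigen-presenting cells, had the smallest difference of these at 0.28 (standard error 0.076), from 205.9 and 201.9 to 263.9 and 237.3. Spp1, which encodes osteopontin and is also made by bone cells, was higher by 0.78 (standard error 0.066), from 95.7 and 103.4 to 184.3 and 180.3. The paper counts the increase of Spp1 among changes in osteogenesis genes. Pf4 was higher by 0.86 (standard error 0.061), from 1035 and 1002 to 1893 and 1819. The defining macrophage genes Csf1r, Adgre1, Cx3cr1 and Aif1 were not analysed here.

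Among 40 genes of leukocyte signaling, 4 were named. Itgb2, the β2 integrin subunit shared by leukocyte integrins, read 187.0 and 185.6 on the control arrays against 275.6 and 233.7 on the NKO arrays, a log2 difference of 0.42 (standard error 0.096). Fermt3, the kindlin that activates integrins in blood cells, was higher by 0.62 (standard error 0.071), and Plek, the protein kinase C substrate pleckstrin, by 0.70 (standard error 0.062). Plcg2, a phospholipase of B cell and Fc receptor signaling, was higher by 0.31 (standard error 0.13), and its NKO arrays were apart at 189.7 and 145.9. Of 25 transcription factor genes of blood cells 3 were named, with a median of 0.30. Gata2 was higher by 0.31 (standard error 0.074), Zeb2 by 0.30 (standard error 0.14) and Tal1 by 0.25 (standard error 0.057). Zeb2, which neural crest cells also express, almost overlapped, with 163.7 in the higher control and 168.6 in the lower NKO array. Spi1, the gene of PU.1, was not analysed here.

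**Figure D4:**
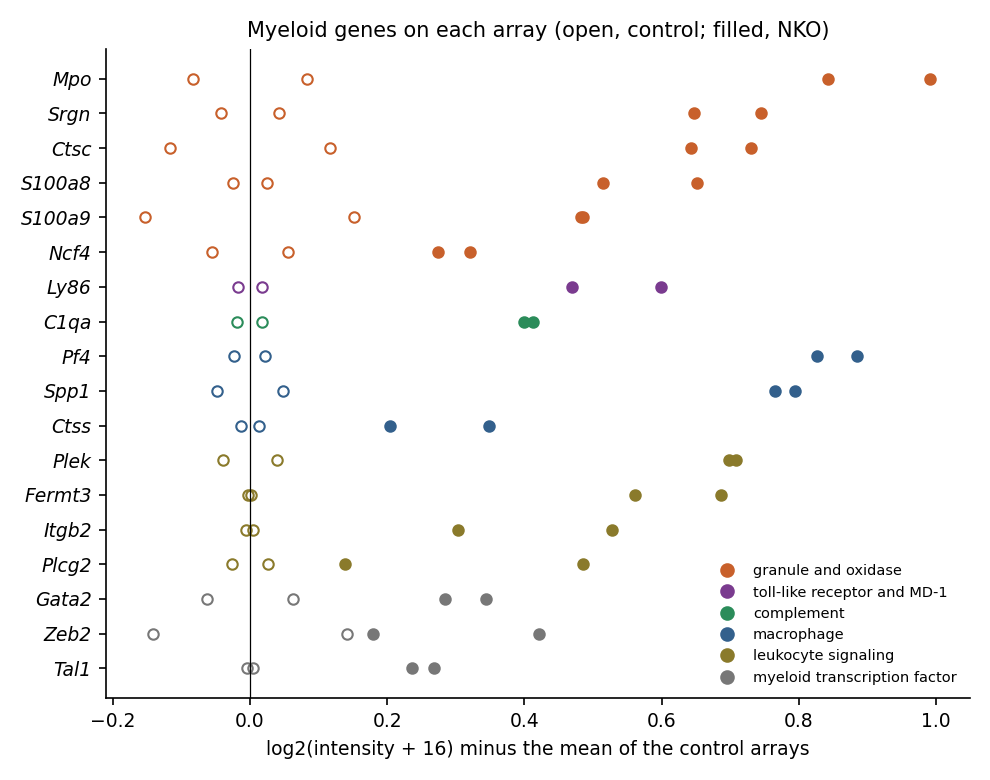
Log2(intensity + 16) of 18 myeloid genes on each array after subtraction of the control mean (horizontal axis), with open points for the 2 control and filled points for the 2 NKO arrays, colored by list. A gene on several lists is drawn once. All filled points lie to the right of the open points of their gene, with Mpo farthest (0.92) and Tal1 nearest (0.25) by the genotype difference.

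The platelet and red blood cell genes named in the authors' table were higher in the same arrays. In the megakaryocyte and platelet list 11 of 30 genes were named and 11 were higher, with a median of 0.60. Their summed intensity was 2475 to 2520 in the controls and 4267 to 4377 in the NKO mutants, led by the chemokine genes Ppbp (0.90, standard error 0.058) and Pf4. Of the 15 myeloid genes, 3 (Pf4, Plek and Tal1) are also on the platelet or red blood cell list. In the red blood cell list 6 of 34 were named and 6 were higher, with a median of 0.27 and sums of 3604 to 3681 and of 4349 to 4378. Of all singly named genes, 59.1% were higher. The named genes of both lists were selected by the authors on the same contrast and do not stand for the lists. The highest of the red blood cell list were Rhag (0.39, standard error 0.066), a membrane protein of the Rhesus complex, and Hemgn (0.29, standard error 0.060), a nuclear protein of erythroid cells. Mpo and Ly86 thus had larger differences than the red blood cell genes named, whose highest was 0.39, and C1qa a similar one, although these gaps were not tested.

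Endothelial and lymphoid genes gave few values. Flt1 (0.32, standard error 0.11) and Plvap (0.29, standard error 0.071), a VEGF receptor gene and a gene of fenestrated endothelium, were the only named genes of 24 of the endothelium. They summed to 438.0 to 451.5 in the controls and 535.7 to 574.0 in the NKO mutants. The T cell receptor subunit gene Cd3e was the only named gene of 19 of lymphocytes and mast cells, and it was lower, from 76.5 and 70.6 to 39.2 and 36.5 (log2 difference -0.73, standard error 0.069). None of these lists had a named gene at 0 in any array. The neural crest genes Pax3 (0.44, standard error 0.080) and Msx2 (0.28, standard error 0.057) were higher as well. The part of platelet, red blood cell, endothelial or neural crest cell numbers in the differences of Mpo, Ly86 and C1qa was not tested.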

How the data were processed

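RNA of sorted cardiac NCCs was amplified and hybridized to 4 Affymetrix mouse genome arrays, 2 per genotype. The authors deposited normalized intensity values on a linear scale. Affymetrix Expression Console is credited in the submitters' processing notes. Its algorithm is not stated in the sources read here, nor is a background correction. The scale was checked against the mean control intensity in the authors' deposited VAMPIRE table, from which the control columns differed by at most 0.0447%. That table also holds the authors' fold changes and p-values, which were not used. It was the only source of gene names. Its names were updated through RefSeq (GRCm38.p6), and 15 single names had no match there. Where several probe sets were named for 1 gene alone, the brightest stood for it. Other probe sets of a gene carry no name here.

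An offset of 16 was added before log2, and 45037 probe sets were fitted in limma 3.58.1 (lmFit, then eBayes, in R 4.3.3), with Benjamini-Hochberg adjustment at 0.05. Standard errors come from this fit. On simulated data the fit was checked only for the recovery of known log2 differences, not for its adjusted calls. Python 3.11.15 with pandas 2.3.3, numpy 2.4.6 and matplotlib 3.10.9 served for the tables and plots. The number of arrays limits the precision. Array medians were 75.9 to 79.3, and log2 values correlated at 0.9968 between the control arrays and 0.9948 between the NKO arrays.

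The members and gene lists were chosen with earlier results of these data known. Genes were named if they were members, Ilk, named genes of the myeloid lists, the 3 nearest to a member, or the highest 2 of another cell type's list. Msx2 and the genes of the closing section were added after their values were seen. Of the neural crest list, 1 gene is not reported here. Alternatives were the offset, quantile normalization, centring, each array left out, the replicate number as a block and the ratio of mean intensities. Further ones were an intensity trend, a filter on dim probe sets and the paper's general t-test for comparing 2 groups.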

Additional observations from a re-analysis of the deposited data

How the results depend on the processing

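Mpo, Ly86 and C1qa were higher in the NKO mutants under all 11 alternatives. Both NKO arrays lay above both controls in each gene. The other offsets, the left-out arrays, the replicate block and the ratio of means therefore could not have reversed the direction. With offsets of 1 and 64, the log2 differences were 1.07 and 0.63 for Mpo, 0.61 and 0.38 for Ly86 and 0.46 and 0.30 for C1qa. As ratios of mean intensities they were 1.08, 0.62 and 0.46, and with centring on the hybridization controls 0.63, 0.25 and 0.12. C1qa, whose replicates were closest, was at 0.38 with quantile normalization and 0.39 with median centring. Leaving out 1 array gave 0.83 to 1.00 for Mpo, 0.47 to 0.60 for Ly86 and 0.39 to 0.42 for C1qa. The replicate block left the differences at 0.92, 0.53 and 0.41 and the calls of limma at 0. Over all probe sets, same-numbered arrays did not deviate together (correlation -0.033). Since the makeup of a replicate was not stated, this cannot tell whether the numbers pair the arrays. No member had a second probe set named for it alone.

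Over all probe sets, limma's 0 higher and 0 lower became 43 and 17 with an offset of 64, 41 and 4165 with the hybridization controls, 313 and 207 with an intensity trend and robust moderation, and 36 and 15 among probe sets brighter than the median. The paper's general t-test, which it does not tie to the arrays, passed 2258 and 1715 at its threshold and 0 after Benjamini-Hochberg adjustment. The 129 higher and 71 lower at 1.5-fold became 1778 and 1557 with an offset of 1, 23 and 13 with 64, 16 and 1127 with the hybridization controls and 38 and 11 among brighter probe sets. They ranged from 226 to 387 and from 145 to 259 with 1 array left out, the highest without the second NKO array. The causes were not tested. With 2 arrays per genotype and dim members, small differences are limited by the offset and the spread between replicates.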

Other observations

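Further genes known from myeloid cells stood in the authors' table but on none of the lists, and were picked after their values were seen. The probe set named for a cluster of stefin A genes (Stfa1 and 3 others), cysteine protease inhibitors of neutrophils, read 231.8 and 233.2 on the control arrays against 362.8 and 352.7 on the NKO arrays, a log2 difference of 0.59 (standard error 0.058). It cannot tell these genes apart. A probe set shared by the Fc receptor genes Fcgr2b and Fcgr3 had a difference of 0.37 (standard error 0.10), with NKO arrays at 149.1 and 124.5 and controls at 103.5 and 100.5. Olfm4, a neutrophil granule glycoprotein gene, was higher by 0.65 (standard error 0.096) on a dim probe set, from 23.2 and 23.9 to 51.2 and 41.7. Ctse, an aspartic protease gene of immune and other cells, was higher by 0.51 (standard error 0.11), and Plac8, a gene of myeloid and other cells, by 0.46 (standard error 0.064). Anxa1, of the anti-inflammatory annexin, was higher by 0.39 (standard error 0.079), Csf2rb, the shared receptor subunit for GM-CSF, by 0.35 (standard error 0.066) and Psap, of the lysosomal prosaposin, by 0.31 (standard error 0.090). In all of these both NKO arrays lay above both controls, as in 58.0% of the singly named genes and 24.2% of all probe sets, and nothing is read from it since they were picked from genes already selected on these arrays.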
